A study of Ovis aries with 36 samples.

Results

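The last of 6 harvests in a time course of cultured sheep ruminal epithelial cells, labelled T20 and taken at 44 h, is described here as the difference between cells in Grain medium and cells in Hay medium. It is represented by 6 of the 36 libraries of the series, 3 in Grain and 3 in Hay, chosen by their labels. Both media carried volatile fatty acids (VFAs, the short-chain acids released by rumen microbes) at pH 7.2, in amounts that copied the rumen of grain-fed or hay-fed sheep. Grain medium held 71.1 mM acetate, 20.1 mM propionate, 16.0 mM butyrate, 1.7 mM valerate, 1.1 mM isobutyrate and 5.3 mM isovalerate, a stated total of 115.78 mM. Hay medium held 60.8 mM acetate, 14.6 mM propionate, 9.2 mM butyrate, 1.2 mM valerate, 1.0 mM isobutyrate and 3.0 mM isovalerate, a stated total of 89.79 mM. Acetate, propionate and butyrate were added as sodium salts, so sodium differed with the acids. All cells, in both media, had first been treated for 2 h with 100 nM dexamethasone without serum. Dexamethasone is a glucocorticoid that brings cellular clocks into step. A culture with no VFAs added is not among the groups used. The other 5 harvests were taken every 4 h, at 24 h (T0), 28 h (T4), 32 h (T8), 36 h (T12) and 40 h (T16), and the event from which these hours count is not clear from the labels. Animals, passages and separate cultures are not described for the 3 libraries of a group, so every p-value below measures the spread between these libraries only, which may be technical.

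Ruminal epithelium takes up VFAs and oxidises a large part of the butyrate, partly to ketone bodies, and butyrate also inhibits histone deacetylases. The unfolded protein response raises chaperones of the endoplasmic reticulum (ER) when proteins misfold there, and the integrated stress response works through the transcription factor ATF4 to raise genes of amino acid supply. In the circadian clock, BMAL1 and CLOCK switch on the PER, CRY and NR1D genes, whose products then repress them. The series was made to ask how VFA concentration bears on circadian gene expression. The comparison at T20 asks which genes differ between the media at the last harvest, and the comparison with the earlier harvests asks which of those differences belong to that harvest.

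Total counts at T20 ranged from 55.1 to 64.4 M reads per library, within 52.4 to 68.1 M over the series. Pairs of T20 libraries within a medium correlated across genes at 0.9824 to 0.9843 (log scale). Their counts differed beyond sampling noise, with chi-square values of 5 to 11.5 for each degree of freedom, so no library was counted as a duplicate. The first principal component of all libraries held 46.4% of the variance and separated the media, and the second held 5.31%. Levels are given as CPM, counts per 1 M counts of the library, scaled with factors of 0.96 to 1.05 at T20. Transcripts of mesenchymal markers were abundant in these epithelial cultures, although FN1 and VIM, whose values are given below, made up most of their sum, and together differed between the media by more than the sum did. The fibroblast and mesenchymal markers summed to 104151 ± 1948 CPM in Grain and 85436 ± 2070.1 in Hay (mean ± SD, n = 3 each, as for all such values below). The basal keratinocyte markers summed to 2551 ± 67.3 CPM in Grain and 1954 ± 66.9 in Hay. CD44 made up 779 CPM of that sum in Grain and 272 in Hay, so the excess in Grain leaned on this gene. Other basal markers went the other way, among them DST (324 CPM in Grain and 510 in Hay) and TP63 (log2 fold change -0.79). For the simple epithelial markers the sums were 193 ± 8.31 CPM in Grain and 297 ± 7.97 in Hay. The labelled cell type was thus only in part borne out by its markers, and the mixture of cells in the cultures is not known. In bulk RNA, fewer cells of a type and less RNA per cell cannot be told apart.

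At T20 most tested members of the lists of ER chaperones and the unfolded protein response, mitosis and G2/M, S phase and ribosomal proteins were higher in Grain, and the mRNAs encoded in mitochondria were lower, with counts and values given by group below. Of 22488 genes tested, 13238 (58.9%) passed an adjusted p of 0.05 in edgeR's quasi-likelihood test with Benjamini-Hochberg adjustment, which gave all adjusted p-values below. Of these, 6682 were higher in Grain (29.7% of genes tested) and 6556 lower (29.2%), a balance that turned to 6279 higher and 6929 lower with the size factors of DESeq2. Changes of at least 2-fold were lopsided, with 1055 genes higher (4.69%) and 2356 lower (10.5%). All 3 Grain libraries stood above all 3 Hay libraries in 7132 genes (31.7%) and below them in 7383 (32.8%). The median log2 fold change of all genes tested was -0.05.

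The largest rises at T20 among well-measured genes mixed transcription factors, secreted peptides, a muscle filament and ER chaperones. MAFF, a small basic leucine zipper factor, had 17.5, 17.0 and 20.5 CPM in Grain, against 1.93, 2.33 and 2.07 CPM in Hay, a log2 fold change of 3.12 (SE 0.13, adjusted p = 8.78e-22). DES, the muscle intermediate filament desmin, had 66.9, 71.0 and 71.1 CPM in Grain, against 7.74, 7.43 and 9.27 CPM in Hay, a log2 fold change of 3.09 (SE 0.09). Media that did not overlap were a condition for naming these genes. CALCB, a calcitonin gene-related peptide, changed by 3.05 on the log2 scale and NMU, the peptide neuromedin U, by 2.50. NR4A1, an immediate early nuclear receptor, had 88.2, 91.1 and 97.9 CPM in Grain, against 13.8, 13.1 and 14.1 CPM in Hay, a log2 fold change of 2.76 (SE 0.08, adjusted p = 1.14e-26). Its 3 libraries within each medium lay close together. BUB1, a kinase of the spindle checkpoint, had 15.9, 15.5 and 14.0 CPM in Grain, against 3.22, 2.67 and 3.61 CPM in Hay (log2 fold change 2.25). LIN54, a subunit of the complex that controls cell cycle genes, averaged 147 ± 2.50 CPM in Grain and 30.6 ± 1.06 in Hay (log2 fold change 2.27). MMP14, a membrane-bound matrix protease, had 86.9, 93.4 and 92.9 CPM in Grain, against 19.5, 20.4 and 17.8 CPM in Hay (log2 fold change 2.24). EGR1, an immediate early zinc finger factor, changed by 2.24 and TMEM269, a membrane protein, by 2.75.

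The largest falls at T20 included 4 mitochondrial mRNAs and genes of iron reduction, growth factors and neurons. STEAP4, a metalloreductase, had 0.753, 1.41 and 0.874 CPM in Grain, against 16.4, 15.9 and 17.7 CPM in Hay, a log2 fold change of -4.04 (SE 0.15, adjusted p = 2.4e-23). ND3, a complex I subunit encoded in the mitochondrion, had 18.5, 16.1 and 15.0 CPM in Grain, against 192, 214 and 202 CPM in Hay, a log2 fold change of -3.62 (SE 0.08, adjusted p = 1.76e-30). TGFB2, a transforming growth factor, had 12.0, 11.1 and 11.3 CPM in Grain, against 74.1, 81.9 and 77.1 CPM in Hay, a log2 fold change of -2.76 (SE 0.06, adjusted p = 3.85e-29). All 3 were likewise named on the condition that the media did not overlap. NEFL, the light neurofilament, had 2.51, 2.40 and 1.94 CPM in Grain, against 16.7, 15.7 and 15.7 CPM in Hay (log2 fold change -2.81). DZIP3, a ubiquitin ligase, had 8.87, 7.93 and 8.72 CPM in Grain, against 58.9, 55.9 and 55.5 CPM in Hay (log2 fold change -2.74). PCSK1, a prohormone convertase, changed by -2.56, GDA, a guanine deaminase, by -2.46 and AMER3, a relative of the WNT regulator AMER1, by -3.27. CCDC89, a coiled-coil gene, changed by -2.26. Counted as reads moved, the greatest gains in CPM at T20 were those of FN1 (fibronectin), VIM (vimentin), HSPA5 and EEF1A1 (a translation elongation factor with near-identical copies, so uncertain). FN1 averaged 74278 ± 1101 CPM in Grain and 61426 ± 1529.8 in Hay and VIM 13404 ± 416 CPM in Grain and 6361 ± 149 in Hay. The greatest losses were those of COX1 and ANXA2 (each overlaps a neighbouring gene, from whose reads an unstranded library cannot separate its own), SPP1 (osteopontin) and COL1A2 (a collagen chain). SPP1 averaged 13166 ± 412 CPM in Grain and 18236 ± 274 in Hay and COL1A2 3996 ± 89.3 CPM in Grain and 6483 ± 75.5 in Hay.

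**Figure D1:**
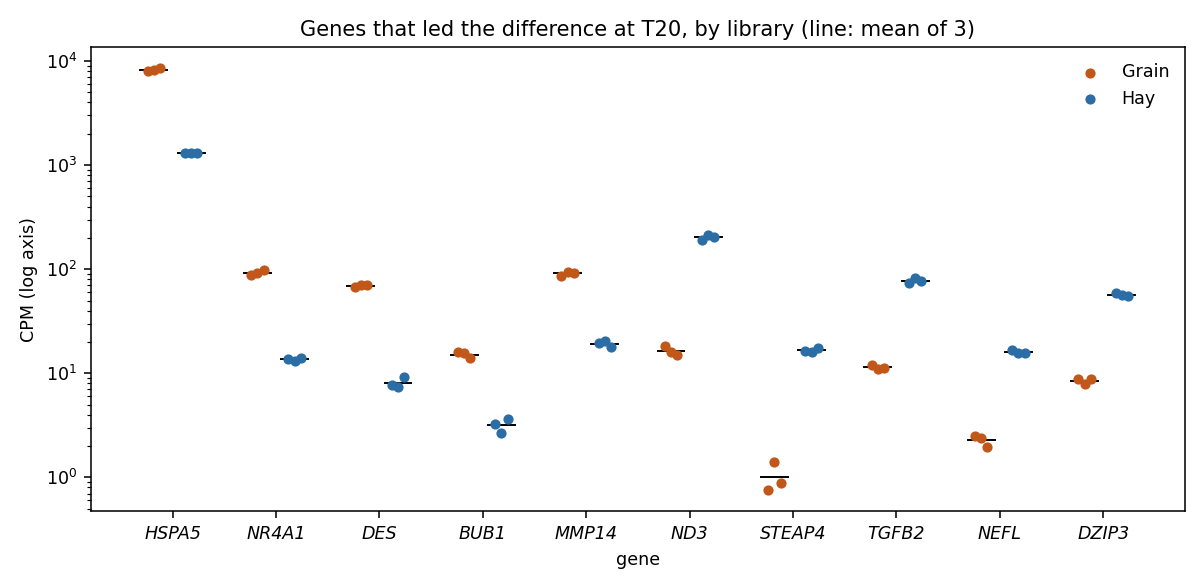
CPM on a log axis for 10 genes at T20, with Grain (orange) left of Hay (blue), 1 point per library and a line at the mean of 3. HSPA5, NR4A1, DES, BUB1 and MMP14 lie higher in Grain, and the other 5 genes lie lower. Media that did not overlap were a condition for naming these genes.

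In the list of ER chaperones and the unfolded protein response, 20 of the 26 members tested were higher in Grain, 3 were lower and 3 did not pass (median log2 fold change 0.29). HSPA5, the main ER chaperone, had 7986, 8126 and 8474 CPM in Grain, against 1316, 1293 and 1305 CPM in Hay, a log2 fold change of 2.65 (SE 0.04, adjusted p = 1.9e-34). HSP90B1, its partner of the HSP90 family, had 5136, 5255 and 5244 CPM in Grain, against 1001, 1018 and 1006 CPM in Hay (log2 fold change 2.37). HERPUD1, which serves ER-associated degradation, had 401, 409 and 419 CPM in Grain, against 89.1, 83.0 and 89.3 CPM in Hay (log2 fold change 2.23). All 3 genes were separated between the media by several times their spread. CREB3L2, a factor cleaved at the Golgi, and PDIA6, a disulfide isomerase that overlaps another gene, fell by 0.32 and 0.17 on the log2 scale. The lowest log2 fold change of any tested member of the list was -0.77. In the integrated stress response list 21 of the 28 members tested were higher in Grain, 4 were lower and 3 did not pass (median log2 fold change 0.46). ASNS, asparagine synthetase, averaged 264 ± 3.69 CPM in Grain and 161 ± 0.160 in Hay (log2 fold change 0.71). SLC7A1, a carrier of cationic amino acids, averaged 64.2 ± 3.84 CPM in Grain and 28.1 ± 1.28 in Hay (log2 fold change 1.19). DDIT4, an inhibitor of mTOR signalling, moved the other way at 5.55 ± 1.14 CPM in Grain and 16.1 ± 0.0914 in Hay (log2 fold change -1.54). ATF4 (0.76) and ATF3 (1.51) rose but overlap other genes. DDIT3, which encodes the stress factor CHOP, had 109.9, 119.8 and 135 CPM in Grain, against 0.782, 0.936 and 0.809 CPM in Hay. The overlapping LOC541600 had 62.5, 54.6 and 61.3 CPM in Grain, against 15.0, 15.3 and 16.0 CPM in Hay. Both were higher in every Grain library, and how their reads were divided is uncertain. The cytosolic aminoacyl-tRNA synthetases, which charge tRNAs, had 11 higher and 5 lower of 20 (median 0.11). KARS1 (0.76) and AARS1 (0.77) rose, whereas IARS1 (-0.73) and RARS1 (-0.46), which both overlap another gene, fell.

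All 13 mRNAs encoded in the mitochondrial genome were lower in Grain at T20, 12 of them by at least 2-fold, with a median log2 fold change of -1.62. The 1 below 2-fold was COX1 (-0.91), with 8161 of their summed 11928 CPM in Grain and 15321 of 30195 in Hay. Of the 13 genes, 7 overlap another gene. Together the 13 mRNAs took 1.16%, 1.18% and 1.12% of counts in Grain, against 3.00%, 3.26% and 3.16% in Hay, and the media did not overlap. The means differed by -1.99 percentage points (exact two-sided permutation test, p = 0.1, the smallest that 3 against 3 libraries allow). COX2, a subunit of cytochrome oxidase, averaged 465 ± 36.9 CPM in Grain and 2708 ± 243 in Hay (log2 fold change -2.54). ND2, of complex I, averaged 299 ± 25.1 CPM in Grain and 1736 ± 104 in Hay (log2 fold change -2.54) and COX3, of cytochrome oxidase, 270.2 ± 17.4 CPM in Grain and 1371 ± 59.6 in Hay (log2 fold change -2.34). Nuclear genes of the respiratory chain moved less, with 6 higher and 12 lower of 22 (median -0.14). NDUFV2, of complex I, changed by -0.77 and SDHA, of complex II, by -0.62.

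Genes of proliferation were higher in Grain at T20. In the mitosis and G2/M list 39 of the 41 members tested were higher in Grain, 0 were lower and 2 did not pass (median log2 fold change 1.15), and 24 of them rose at least 2-fold. TOP2A, a topoisomerase of dividing cells, had 71.9, 73.2 and 78.2 CPM in Grain, against 35.3, 33.4 and 32.8 CPM in Hay, a log2 fold change of 1.14 (SE 0.05, adjusted p = 3.12e-22). MAD2L1, of the spindle checkpoint, had 43.5, 43.6 and 43.2 CPM in Grain, against 15.7, 13.1 and 13.4 CPM in Hay (log2 fold change 1.62). MKI67, the proliferation antigen Ki-67, averaged 6.92 ± 0.119 CPM in Grain and 1.88 ± 0.335 in Hay (log2 fold change 1.88). PTTG1, securin, averaged 15.3 ± 0.528 CPM in Grain and 14.3 ± 1.04 in Hay, where the media overlapped (adjusted p = 0.224). In the DNA replication and S phase list 37 of the 43 members tested were higher in Grain, 2 were lower and 4 did not pass (median log2 fold change 0.79). ORC6, of the origin recognition complex, had 33.4, 35.8 and 33.2 CPM in Grain, against 7.32, 6.99 and 7.56 CPM in Hay (log2 fold change 2.23). MCM10, a replication initiation factor, averaged 74.5 ± 0.890 CPM in Grain and 22.1 ± 1.11 in Hay and PCNA, the sliding clamp, 77.0 ± 2.65 CPM in Grain and 29.0 ± 1.01 in Hay. CCNE2, cyclin E2, was lower (log2 fold change -0.73) and overlaps other genes. G1 cyclins, CDK inhibitors and p53 targets had 7 higher and 10 lower of 23 (median -0.03). Within that list PLK2, a p53 target kinase, had 416, 424 and 423 CPM in Grain, against 1155, 1132 and 1133 CPM in Hay (log2 fold change -1.44). CCND1, cyclin D1, averaged 24.7 ± 1.14 CPM in Grain and 55.7 ± 0.280 in Hay, and CDKN2D, an inhibitor of CDK4 and CDK6, rose by 1.89 on the log2 scale.

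Every one of the 73 cytosolic ribosomal protein genes tested was higher in Grain, by a median of 0.50 on the log2 scale (range 0.18 to 1.06). RPS27 averaged 374 ± 4.40 CPM in Grain and 208 ± 2.61 in Hay (log2 fold change 0.85), RPS4X 1447 ± 8.28 CPM in Grain and 820.0 ± 10.3 in Hay (0.82) and RPL38 109 ± 5.47 CPM in Grain and 92.0 ± 3.18 in Hay (0.25). Of these genes 34 overlap another gene, and ribosomal protein genes have processed copies, so single values are uncertain. Ribosome biogenesis genes had 21 higher and 6 lower of 31 (median 0.32): NPM1, nucleophosmin, averaged 589 ± 3.84 CPM in Grain and 252 ± 5.02 in Hay and DDX21, a nucleolar helicase, 191 ± 7.90 CPM in Grain and 114 ± 0.301 in Hay. MYC, which drives ribosome biogenesis, went the opposite way, with 12.6, 11.7 and 11.9 CPM in Grain, against 46.9, 50.7 and 50.9 CPM in Hay, a log2 fold change of -2.03 (SE 0.07, adjusted p = 3.53e-24). Proteasome subunits had 9 higher and 13 lower of 31 (median -0.05).

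The shares of 29.7% higher and 29.2% lower over all genes are the background for the lists that follow, several of which lie near them. In the acid and VFA transport list 3 of the 28 members tested were higher in Grain, 14 were lower and 11 did not pass (median log2 fold change -0.29). SLC16A1, the monocarboxylate carrier MCT1, had 81.5, 79.7 and 82.0 CPM in Grain, against 119, 116 and 115 CPM in Hay (log2 fold change -0.53). EMB, an ancillary protein of these carriers, averaged 4.72 ± 0.229 CPM in Grain and 13.0 ± 1.33 in Hay (log2 fold change -1.46). Both were lower in all Grain libraries than in any Hay library. Short-chain acid activation and oxidation had 12 higher and 11 lower of 28 (median -0.03): CPT2, a carnitine transferase, and ACAA2, a thiolase, fell by 0.89 and 0.99, and AUH, of leucine breakdown, rose by 0.60. Ketone metabolism had 1 higher and 4 lower of 9 (median -0.08), in which OXCT1, which uses ketone bodies, averaged 137 ± 1.44 CPM in Grain and 212 ± 8.37 in Hay (log2 fold change -0.63) and ACAT1, a thiolase of ketone metabolism, 195 ± 1.18 CPM in Grain and 163 ± 3.11 in Hay (0.26). Cholesterol synthesis and uptake had 18 higher and 4 lower of 23 (median 0.37). INSIG1, which holds back the SREBP factors, had 119, 119 and 119 CPM in Grain, against 47.3, 43.1 and 43.6 CPM in Hay, a log2 fold change of 1.42 (SE 0.04, adjusted p = 7.89e-26). Fatty acid synthesis had 6 higher and 5 lower of 14 (median 0.06), with FASN, the fatty acid synthase, at 29.2 ± 0.592 CPM in Grain and 19.4 ± 0.356 in Hay. Glycolysis had 10 higher and 6 lower of 20 (median 0.10): GAPDH rose by 0.69, and PKM and LDHA fell by 0.60 and 0.57.

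Core clock genes differed modestly at T20, with 9 higher and 4 lower of 18 (median 0.17). BMAL1, the activator of the clock, had 81.8, 82.1 and 80.1 CPM in Grain, against 42.5, 42.2 and 40.6 CPM in Hay, a log2 fold change of 0.96 (SE 0.04, adjusted p = 2.23e-21). CLOCK, its partner, averaged 74.1 ± 2.06 CPM in Grain and 62.3 ± 2.22 in Hay (log2 fold change 0.25). NR1D2, which represses BMAL1, averaged 41.6 ± 2.25 CPM in Grain and 36.3 ± 1.03 in Hay (log2 fold change 0.20). PER1 rose by 0.36 (adjusted p = 0.000642), with 12.0, 10.7 and 11.0 CPM in Grain, against 8.01, 8.44 and 9.71 CPM in Hay. PER2, at 2.71 ± 0.332 CPM in Grain and 3.84 ± 0.585 in Hay, had a log2 fold change of -0.51 (SE 0.18, adjusted p = 0.0156), a call lost without Grain replicate 3 or Hay replicate 1 (adjusted p up to 0.0973). CRY2 (0.19, adjusted p = 0.0681) and PER3 (-0.27, adjusted p = 0.0721) did not pass. Clock output factors had 8 higher and 4 lower of 13 (median 0.37): KLF10, a zinc finger factor, averaged 40.6 ± 0.715 CPM in Grain and 91.1 ± 1.25 in Hay (log2 fold change -1.17), NFIL3, a repressor of D-box genes, 103 ± 3.25 CPM in Grain and 69.0 ± 0.527 in Hay (0.58). DBP, an activator of the same sites, averaged 2.75 ± 0.739 CPM in Grain and 2.12 ± 0.119 in Hay (0.37, adjusted p = 0.0802). For no core clock gene did the T20 difference depart from the earlier mean or from T16 at an adjusted p of 0.05.

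Interferon response genes had 5 higher and 11 lower of 28 (median -0.64). MX1, an antiviral GTPase, had 28.0, 27.8 and 25.4 CPM in Grain, against 68.9, 74.0 and 71.7 CPM in Hay, a log2 fold change of -1.40 (SE 0.06, adjusted p = 2e-21). Inflammation and NF-kB genes had 5 higher and 9 lower of 27 (median -0.12). CXCL8, a neutrophil chemokine, had 479, 451 and 519 CPM in Grain, against 1294, 1212 and 1299.6 CPM in Hay (log2 fold change -1.39), and IL1A, another cytokine, fell by 1.22. BIRC3, an inhibitor of apoptosis, rose to 212 CPM in Grain, against 89.1 in Hay. Summed markers of immune cells came to 6.62 ± 0.493 CPM in Grain and 11.0 ± 0.552 in Hay, with 2 higher and 5 lower of 13, and their part in these differences was not tested. Immediate early genes had 21 higher and 9 lower of 34 (median 0.38): FOSL2, an AP-1 subunit, averaged 82.3 ± 2.32 CPM in Grain and 280.4 ± 1.25 in Hay (log2 fold change -1.77) and FOS 20.5 ± 0.241 CPM in Grain and 10.4 ± 0.535 in Hay (0.97).

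The other stress and signalling lists also had members past the threshold in both directions, as did all genes. NRF2 and oxidative stress had 9 higher and 18 lower of 30 (median -0.23): PRDX1, a peroxiredoxin, averaged 957 ± 17.3 CPM in Grain and 1750.1 ± 27.9 in Hay. HMOX1, heme oxygenase, had 11.4, 10.7 and 11.6 CPM in Grain, against 41.0, 42.0 and 40.7 CPM in Hay, a log2 fold change of -1.88 (SE 0.08, adjusted p = 4.67e-21). Heat shock had 5 higher and 11 lower of 18 (median -0.34): HSP90AB1, a cytosolic HSP90, averaged 1201 ± 35.2 CPM in Grain and 333 ± 12.9 in Hay (log2 fold change 1.85), DNAJB1, a co-chaperone, rose by 0.99, and HSPA1A, which overlaps another gene and has a near-identical copy, fell by 1.26. Hypoxia targets had 9 higher and 11 lower of 25 (median -0.05), with VEGFA, the vascular growth factor, at 264 ± 11.9 CPM in Grain and 95.7 ± 1.73 in Hay. Glucocorticoid targets had 10 higher and 8 lower of 20 (median -0.02) and summed to 5605 ± 304 CPM in Grain and 4032 ± 61.1 in Hay. SGK1, a kinase of salt transport and 1 of the 8 lower members, averaged 206 ± 3.04 CPM in Grain and 549 ± 11.2 in Hay. CEBPD, a bZIP factor, averaged 18.2 ± 0.515 CPM in Grain and 50.0 ± 2.33 in Hay. Osmotic and cell volume genes had 4 higher and 9 lower of 18 (median -0.10), in which AKR1B1, which makes sorbitol, averaged 149.6 ± 2.40 CPM in Grain and 228 ± 11.0 in Hay. Genes raised by histone deacetylase inhibitors had 6 higher and 8 lower of 16 (median -0.23), with CITED2 at 63.8 ± 0.785 CPM in Grain and 213 ± 10.7 in Hay. KLF2, an endothelial zinc finger factor, averaged 19.8 ± 0.416 CPM in Grain and 5.04 ± 0.247 in Hay. Autophagy and lysosome had 17 higher and 8 lower of 30 (median 0.18) and apoptosis regulators 7 higher and 8 lower of 22 (median 0.06), with BID, a death-promoting BCL2 relative, at 61.5 ± 0.987 CPM in Grain and 21.5 ± 0.462 in Hay.

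Matrix genes were more often higher than lower in Grain, with 25 higher and 11 lower of 40 (median 0.29). COL5A2, a fibrillar collagen chain, had 2843, 2968 and 2928 CPM in Grain, against 1417, 1446 and 1382 CPM in Hay (log2 fold change 1.04). MMP1, the interstitial collagenase, had 54.5, 54.9 and 55.3 CPM in Grain, against 259, 238 and 249.7 CPM in Hay (log2 fold change -2.18). VCAN, versican, averaged 649.6 ± 45.8 CPM in Grain and 618 ± 30.2 in Hay, where the media overlapped (adjusted p = 0.198). TGF-beta signalling and targets had 9 higher and 13 lower of 26 (median -0.04). Tight and adherens junctions had 6 higher and 8 lower of 22 (median 0.07): CTNNB1, beta-catenin, averaged 143 ± 3.59 CPM in Grain and 269.9 ± 8.73 in Hay (log2 fold change -0.92) and CLDN12, a claudin, 95.6 ± 0.895 CPM in Grain and 68.5 ± 4.06 in Hay (0.48).

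Among cell type markers, differentiated keratinocyte genes had 0 higher and 8 lower of 16 (median -0.37) and summed to 186 ± 4.10 CPM in Grain and 273 ± 5.47 in Hay. DSC2, desmocollin 2, averaged 45.3 ± 1.18 CPM in Grain and 94.5 ± 3.91 in Hay and CRNN, cornulin, 2.19 ± 0.343 CPM in Grain and 5.74 ± 0.415 in Hay. Simple epithelial markers had 1 higher and 7 lower of 11 (median -0.57), with KRT8 at 33.5 ± 1.24 CPM in Grain and 78.1 ± 3.35 in Hay. EPCAM, an adhesion molecule and the 1 marker that was higher, averaged 26.4 ± 1.85 CPM in Grain and 22.5 ± 1.11 in Hay (a call lost without Grain replicate 2 or Hay replicate 3, adjusted p up to 0.0825). Basal keratinocyte markers had 6 higher and 5 lower of 15 (median 0.14): KRT14 averaged 168 ± 5.14 CPM in Grain and 116 ± 3.65 in Hay (log2 fold change 0.54) and KRT5 71.1 ± 3.34 CPM in Grain and 64.8 ± 4.11 in Hay (adjusted p = 0.0822). Keratins resemble one another, so their counts are uncertain. Fibroblast and mesenchymal markers had 11 higher and 9 lower of 22 (median 0.14), with POSTN, periostin, at 1334, 1426 and 1426 CPM in Grain, against 485, 524 and 504 CPM in Hay. Smooth muscle and myofibroblast markers had 9 higher and 4 lower of 13 (median 0.42) and summed to 3183 ± 140.2 CPM in Grain and 3386 ± 80.1 in Hay. Endothelial markers had 3 higher and 5 lower of 12 (median -0.51) and summed to 96.3 ± 3.43 CPM in Grain and 60.9 ± 2.75 in Hay. FLT1 made up 62.8 CPM of that sum in Grain and 29.3 in Hay, so the higher sum in Grain leaned on this gene. The part of any shift in cell mixture in the other differences was not tested.

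**Figure D2:**
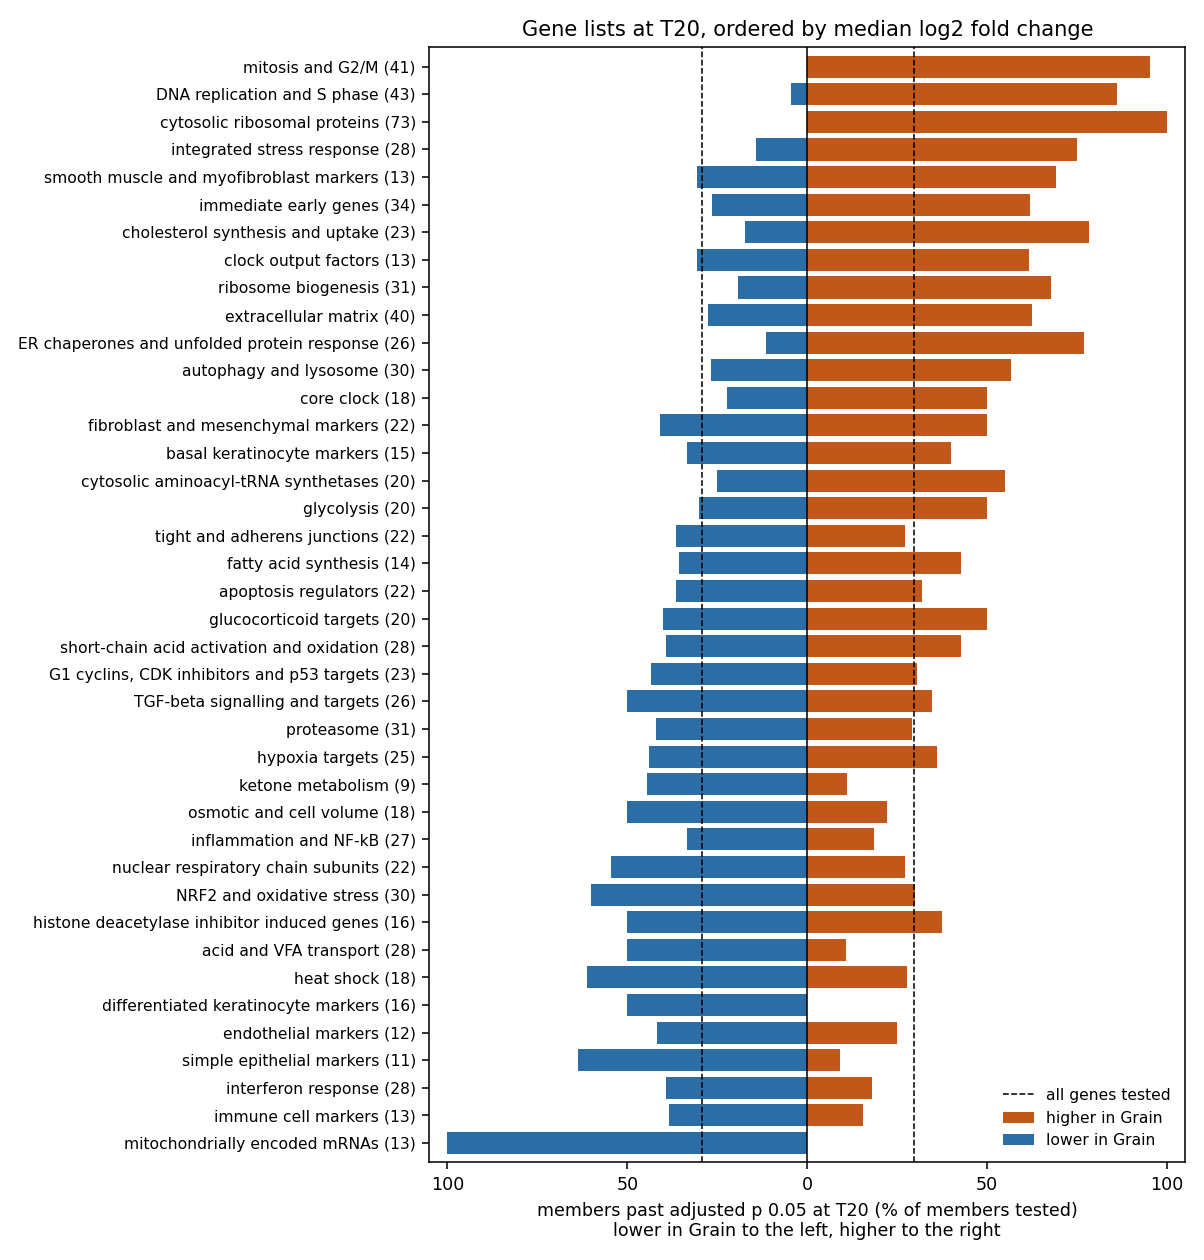
Share of the tested members of each of the 40 gene lists (number tested in brackets) that passed an adjusted p of 0.05 at T20, higher in Grain to the right and lower to the left, with dashed lines at 29.7% and 29.2% for all genes. Mitosis, S phase and ribosomal protein lists lie at the top with few or no lower members, and the mitochondrially encoded mRNAs lie at the bottom with all 13 lower.

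Few genes had a Grain minus Hay difference at T20 that departed from that of the earlier harvests. When the Grain minus Hay difference at T20 was tested against its mean over T0 to T16, 77 of 22488 genes (0.342%) passed, 39 with a higher difference at T20 (0.173%) and 38 with a lower one (0.169%). At an unadjusted p of 0.05, 2470 genes passed. No gene passed when a departure of at least 1.5-fold was asked for. The count leaned on single libraries: it was 22 without Grain replicate 1, 40 without Grain replicate 3, 18 without Hay replicate 1 and 37 without Hay replicate 2 of T20, and 19, 33, 17 and 30 of the 77 genes were among them. It also leaned on which harvests made up the mean, at 29 genes without T0 and at 293, 342, 278 and 198 without T4, T8, T12 and T16, and DESeq2 gave 283, among them 72 of the 77. The same contrast at the other harvests, chosen after seeing the count at T20, gave 1029 genes at T0 (4.58%), 2897 at T4 (12.9%), 5301 at T8 (23.6%), 5670 at T12 (25.2%) and 2077 at T16 (9.24%), from means that share libraries with one another. The size of these counts was not compared by a test, and the counts of the other harvests were not recomputed with libraries left out.

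**Figure D3:**
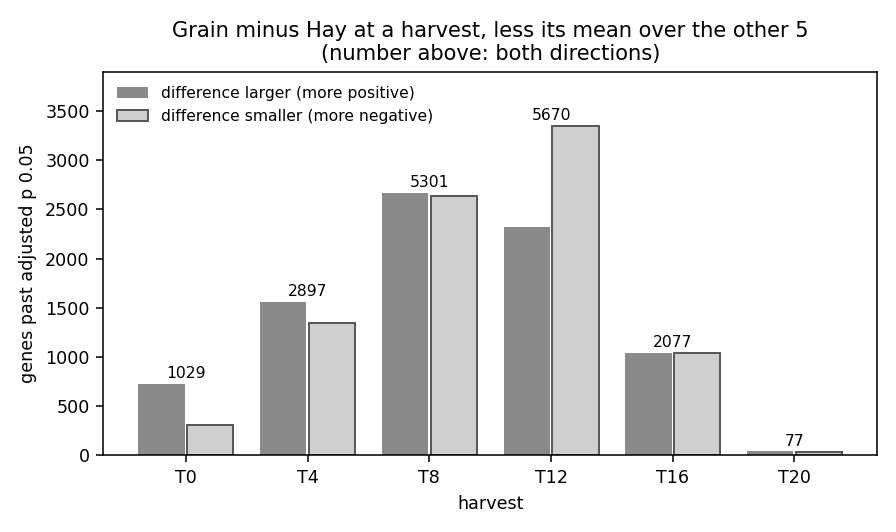
Number of genes whose Grain minus Hay difference at a harvest departed from its mean over the other 5 harvests (adjusted p of 0.05), by harvest from T0 to T20, in each direction. The bars at T20 stand for 77 genes in all, and the tallest pair, at T12, for 5670.

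Most T20 calls were shared with the earlier harvests. In the mean of T0 to T16, 18089 genes (80.4%) passed, and 12909 genes passed both there and at T20 in the same direction. A further 313 passed at T20 alone, 5164 in the earlier mean alone, where 15 libraries a medium stand against 3, and 16 passed in opposite directions. Over 11685 genes with at least 5 CPM, the log2 fold changes at T20 correlated with those at T0 at 0.97, at T4 at 0.952, at T8 at 0.929, at T12 at 0.923 and at T16 at 0.96 (Pearson, across genes, which are not independent replicates). The median absolute log2 fold change over all genes tested was 0.473 at T20, against 0.551 at T0, 0.473 at T4, 0.46 at T8, 0.549 at T12 and 0.537 at T16.

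**Figure D4:**
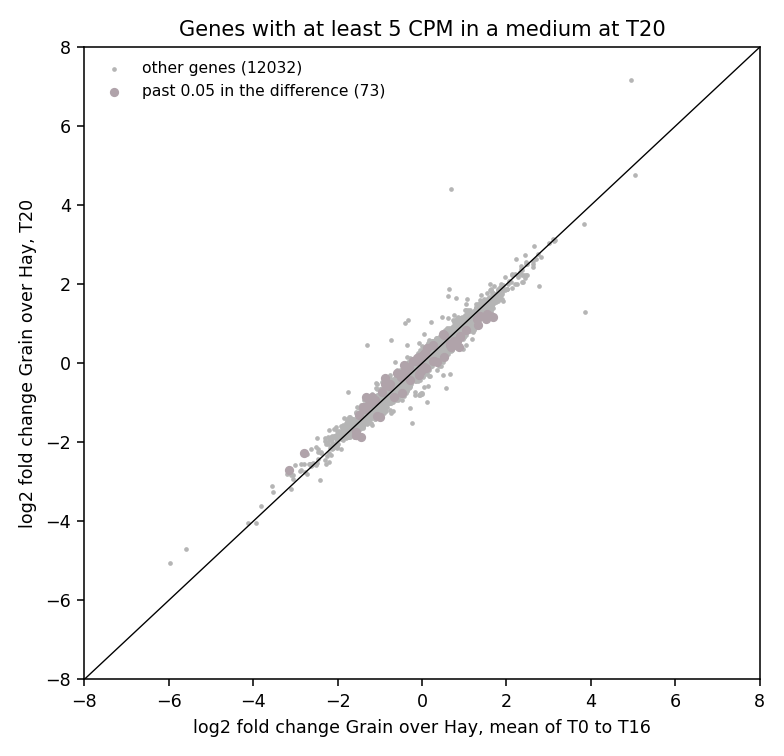
Log2 fold change of Grain over Hay at T20 (vertical axis) against its mean over T0 to T16 (horizontal axis) for genes of 5 CPM or more in either medium at T20, with the line of equality. Genes that passed the test of the difference (larger points, in a similar grey) lie close to the line, and the small points farther from it did not pass.

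Among the 77 genes were 4 of the 13 smooth muscle and myofibroblast markers, all with a lower difference at T20 than in the earlier mean, beside 0.169% of all genes. TPM2, beta-tropomyosin, had 313, 361 and 359 CPM in Grain, against 154, 156 and 148 CPM in Hay, a log2 fold change of 1.17, against 1.68 in the earlier mean. The difference between differences was -0.51 (SE 0.06, adjusted p = 1.4e-05). TAGLN, transgelin, had 274, 296 and 288 CPM in Grain, against 220.1, 217 and 206 CPM in Hay, a log2 fold change of 0.42 against 0.87 (difference -0.45, SE 0.06, adjusted p = 1.4e-05). ACTG2, enteric smooth muscle actin, moved likewise (difference -0.42, adjusted p = 0.00322) but overlaps another gene, and its call was lost when T0 or T8 was left out of the mean. In these 3 genes it was Hay that had moved, with T20 levels 0.42, 0.36 and 0.46 above the earlier mean on the log2 scale in Hay, and -0.09, -0.09 and 0.04 from it in Grain. They are not particular to T20 in the stricter sense, since the TPM2 difference ranged over 1.00 to 2.26 at the earlier harvests, the TAGLN difference over 0.13 to 1.68 and the ACTG2 difference over 0.42 to 2.62, with T20 inside each range. In Hay, TPM2 averaged 55.6 CPM at T8, 252 at T12, 204 at T16 and 153 at T20. ACTA2, vascular smooth muscle actin, was the fourth marker (-0.21, adjusted p = 0.0475), but its call was lost without any of the 6 libraries of T20 in turn (adjusted p up to 0.27), and the actins share sequence.

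**Figure D5:**
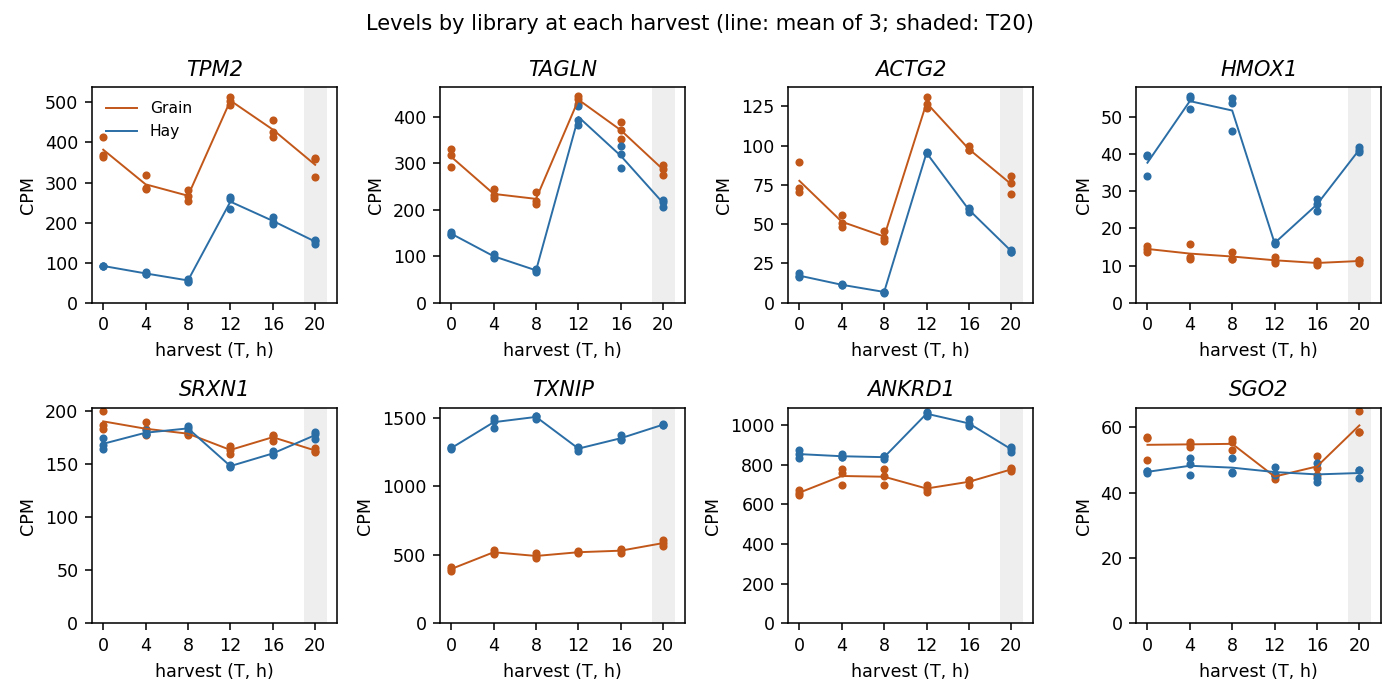
CPM of 8 genes in each library over the 6 harvests, Grain in orange and Hay in blue, with lines through the means of 3 and T20 shaded. TPM2, TAGLN and ACTG2 step up in both media between T8 and T12 and decline after it, HMOX1 in Hay does the reverse, and SRXN1 at T20 lies lower in Grain than in Hay.

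Of the 38 named genes that passed this test and were refitted, 6 kept the call whichever of the 6 T20 libraries was left out: TPM2, TAGLN, ACTG2, SRXN1, ANKRD1 and ODC1. SRXN1, sulfiredoxin, an enzyme that restores peroxiredoxins, had 165, 161 and 163 CPM in Grain, against 179, 180.2 and 173 CPM in Hay, a log2 fold change of -0.12 (adjusted p = 0.000461), against 0.09 in the earlier mean and -0.04 to 0.17 at the single earlier harvests. The difference was -0.21 (SE 0.03, adjusted p = 0.000741), and with all 3 Grain libraries below all Hay libraries the direction at T20 was opposite to that of the earlier mean. ANKRD1, a muscle ankyrin repeat protein and target of YAP, had 782, 779 and 769.9 CPM in Grain, against 867, 878 and 889.8 CPM in Hay, a log2 fold change of -0.18 against -0.37 (difference 0.20, adjusted p = 0.00539), close to the -0.18 of T4 and of T8, and the call was lost when T12 was left out of the mean. ODC1, which makes polyamines, fell by 1.75 at T20, against -1.56 in the earlier mean (difference -0.18, adjusted p = 0.00046), and overlaps another gene.

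By the rule for genes most particular to T20, which asked for a T20 difference outside the range of the 5 earlier ones, 12 genes with a higher difference are named. SGO2, shugoshin 2, which protects cohesion of sister chromatids, had 64.9, 58.4 and 58.4 CPM in Grain, against 46.8, 44.4 and 46.8 CPM in Hay, a log2 fold change of 0.40 against -0.04 to 0.24 at the earlier harvests (difference 0.26, adjusted p = 0.0256). KIFAP3, an adaptor of kinesin 2, had 74.1, 71.3 and 71.6 CPM in Grain, against 146, 150.5 and 148 CPM in Hay (difference 0.21, adjusted p = 0.00776). CALCOCO2, an autophagy receptor, had 165, 155 and 163 CPM in Grain, against 141, 143 and 136 CPM in Hay (difference 0.17, adjusted p = 0.0067). All 3 had moved more in Grain than in Hay relative to the earlier mean: SGO2 by 0.24 in Grain and -0.02 in Hay, KIFAP3 by 0.19 in Grain and -0.02 in Hay and CALCOCO2 by 0.11 in Grain and -0.06 in Hay. The others were CCDC89 (0.53), PPWD1, a peptidyl-prolyl isomerase (0.25), NFS1, the mitochondrial cysteine desulfurase (0.22), CHM, a Rab escort protein (0.20), BET1, a Golgi SNARE (0.19), ARPP19, an inhibitor of a mitotic phosphatase (0.19), PRDX3, the mitochondrial peroxiredoxin (0.19), INIP, of a single-strand DNA binding complex (0.18), and ANKRD1. The calls of CCDC89, CHM, ARPP19, PRDX3, INIP and NFS1 were lost without any of the 6 libraries in turn (adjusted p up to 0.166, 0.176, 0.112, 0.136, 0.125 and 0.128), and that of CALCOCO2 without Grain replicate 1 (adjusted p = 0.0617). BET1 was lost without each library but Grain replicate 2 (up to 0.204), SGO2 without Grain replicate 1 or any Hay replicate (up to 0.178), PPWD1 without Grain replicate 1, Hay replicate 1 or Hay replicate 2 (up to 0.0642) and KIFAP3 without Grain replicate 1 or Hay replicate 1 (up to 0.0616).

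In the other direction 10 genes met the rule. PLIN2, a coat protein of lipid droplets, had 318, 321 and 318 CPM in Grain, against 399, 379 and 381 CPM in Hay, a log2 fold change of -0.28 against -0.26 to 0.16 at the earlier harvests (difference -0.20, adjusted p = 0.00451). ELK3, a transcription factor of the ETS family, had 84.1, 82.0 and 83.2 CPM in Grain, against 78.5, 82.1 and 78.3 CPM in Hay, a log2 fold change of 0.06 that did not pass at T20, against 0.12 to 0.46 earlier (difference -0.22, adjusted p = 0.0138). GIT1, a scaffold of focal adhesions, had 37.2, 41.4 and 42.7 CPM in Grain, against 17.0, 17.1 and 16.9 CPM in Hay (difference -0.29, adjusted p = 0.045). For PLIN2 and ELK3 the Grain level fell below its earlier mean and the Hay level lay above its own, by -0.11 in Grain and 0.09 in Hay for PLIN2 and -0.15 in Grain and 0.07 in Hay for ELK3. The remaining genes were SPATS2L, a stress granule protein (-0.36), RASL11A, a small GTPase (-0.36), C14H19orf12 (-0.32), DRAM1, a p53 target of the lysosome (-0.28), ZBED4, a zinc finger gene (-0.27), RALY, an RNA-binding protein (-0.20), and SRXN1. Without 1 library, PLIN2 lost its call for Hay replicate 1 (adjusted p = 0.0524) and ELK3 for Hay replicate 2 (adjusted p = 0.0681). The others, SRXN1 aside, lost theirs for 3 to 5 of the 6 libraries. In all, 49 of the 77 genes had a T20 difference outside the earlier range, 26 above it and 23 below, and Grain had moved more than Hay in 58 of the 77.

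A reversal of direction was rare. Of the 16 genes that passed in opposite directions at T20 and in the earlier mean, 6 also passed in the difference, and 3 of these met the conditions for naming: SRXN1, PPWD1 and INIP. PPWD1 had 36.5, 35.3 and 36.3 CPM in Grain, against 32.9, 32.5 and 33.6 CPM in Hay, a log2 fold change of 0.13 (adjusted p = 0.0147) against -0.12 in the earlier mean. INIP had 68.5, 70.8 and 69.2 CPM in Grain, against 66.8, 65.4 and 64.1 CPM in Hay, a log2 fold change of 0.09 (adjusted p = 0.0375) against -0.09. Both changes are small, and the T20 call was lost without Hay replicate 2 for PPWD1 (adjusted p = 0.051) as for both with the size factors of DESeq2, and without 4 of the 6 libraries for INIP (up to 0.135).

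Members of other lists that departed from the earlier mean were few. HMOX1 had a lower difference at T20 (-0.42, adjusted p = 0.0205), with a log2 fold change of -1.88 at T20 inside the earlier range of -2.06 to -0.49. FOS, an AP-1 subunit, had -0.36 (adjusted p = 0.0367), NFIL3 -0.20 (adjusted p = 0.02) and, both overlapping other genes, SREBF2, the factor of cholesterol genes, -0.20 and SQSTM1, an autophagy receptor, -0.20. TXNIP, an inhibitor of thioredoxin and of glucose uptake that also overlaps another gene, had a higher difference at T20 (0.18, adjusted p = 0.00706), with 607, 587 and 561 CPM in Grain, against 1449, 1454 and 1444 CPM in Hay. All of these were lost without at least 1 T20 library: TXNIP without Grain replicate 1 (adjusted p = 0.0702), FOS without any of the 6 in turn (up to 0.173), and the others without 3 to 5 of them. Outside the lists, and chosen after their values were seen, FLNA, an actin cross-linker (-0.20), TUBB, a beta-tubulin with close paralogs (-0.24), EREG, a ligand of the EGF receptor (-0.26), IGFBP5, which binds insulin-like growth factors (0.28), and MSTN, myostatin (0.51), also passed, of which EREG and MSTN overlap another gene. Each had a call lost without 3 to 5 of the 6 libraries. In 33 of the 40 lists no member departed from the earlier mean at an adjusted p of 0.05.

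Compared with the harvest 4 h earlier, the Grain minus Hay difference at T20 departed in 733 genes (3.26%), 375 higher (1.67%) and 358 lower (1.59%), and in 487 without Grain replicate 1 of T20. The higher ones numbered 242 without Grain T20 replicate 1, 244 without Grain T20 replicate 3, 248 without Hay T20 replicate 3 and 240 without Grain T16 replicate 2, and the split was 287 higher and 423 lower with the size factors of DESeq2. The immediate early genes NR4A1 (-0.56, adjusted p = 0.00159) and NR4A3 (-0.67, adjusted p = 0.00671) had a smaller excess in Grain at T20 than at T16. NR4A1 averaged 92.4 CPM in Grain and 13.7 in Hay at T20, against 132 in Grain and 13.2 in Hay at T16. Also lower in difference were SLC2A3, the glucose carrier GLUT3, by -0.48 (adjusted p = 0.00019) and HK2, hexokinase, which overlaps other genes, by -0.30 (adjusted p = 0.00156). VEGFA (-0.34) and the kinetochore gene CENPF (-0.42) likewise had a smaller excess in Grain, with log2 fold changes of 1.465 and 1.416 at T20. The cell cycle inhibitor CDKN1A (-0.44) had a lower difference at T20, as had PTGS2, the inducible cyclooxygenase, which overlaps another gene (-0.57, adjusted p = 1.54e-05). Both were lower in Grain at T20 (log2 fold changes -0.58 and -1.37), by more than at T16. KLF2 (0.52, adjusted p = 0.0163) and FASN (0.41, adjusted p = 0.0327) had a higher difference at T20. The KLF2 call was lost without Hay T16 replicate 3 (adjusted p = 0.0767), and that of FASN without 10 of the 12 libraries in turn (up to 0.108). All genes named so far in this comparison are picked examples, and their balance of directions is not that of all genes. Higher differences also held with each of the 12 libraries left out, among them those of CCDC89 (0.98), DZIP3 (0.51), ACTG2 (0.48) and ANKRD1 (0.32). Of these, CCDC89, DZIP3 and ANKRD1 were lower in Grain at T20, by less than at T16. By list, the members with a lower difference at T20 than at T16 numbered 5 of 20 for glucocorticoid targets, 4 of 16 for genes raised by histone deacetylase inhibitors, 3 of 13 for clock output factors, 4 of 18 for heat shock, 5 of 23 for G1 cyclins, CDK inhibitors and p53 targets, 4 of 20 for glycolysis, 5 of 27 for inflammation and NF-kB, 5 of 30 for NRF2 and oxidative stress, 5 of 40 for extracellular matrix and 4 of 34 for immediate early genes, beside 1.59% of all genes. Members with a higher difference numbered 3 of 22 for nuclear respiratory chain subunits, 3 of 23 for cholesterol synthesis and uptake and 3 of 34 for immediate early genes, beside 1.67% of all genes. The remaining lists had at most 2 members in either direction, and the median of the glycolysis list was near 0 (0.00236).

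Against the other harvests, chosen after seeing the data, the T20 difference departed in 929 genes for T0 (4.13%), 915 for T4 (4.07%), 2520 for T8 (11.2%) and 3116 for T12 (13.9%), and for T0 in 576 without Grain replicate 1 of T20. These comparisons share the T20 libraries. Levels at T20 were also placed between their neighbours, with T0 taken as the neighbour after T20. Among genes whose group means ranged over at least 0.5 on the log2 scale, the T20 level lay between those of T16 and T0 in 32.3% of 2480 genes in Grain and in 73.7% of 1270 genes in Hay. The shares were alike at T0, at 32.2% in Grain and 71.4% in Hay. Both harvests use the step from T20 to T0, so these shares cannot show whether this contrast between the media is particular to T20. At T4, T8 and T16 they were 80.8%, 15% and 90.6% in Grain and 69.2%, 17.2% and 82.1% in Hay. For T12, which followed a shared step between T8 and T12, the level lay between those of its neighbours in 5.15% of genes in Grain and 5.66% in Hay. The labels name no batch that could be set against this step, and its source was not tested.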

How the data were processed

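The 36 libraries were deposited by the authors as a table of raw read counts over 35223 genes. Per the labels' protocols, TRNzol was used for RNA extraction and TruSeq RNA v2, an unstranded kit, for libraries, read in pairs by NovaSeq. The submitters' processing notes name HISAT2 2.2.1, SAMtools 1.20 and StringTie 2.1.5 without roles, and neither counter nor build is stated in the sources used here. Gene names and overlaps came from RefSeq (assembly ARS-UI_Ramb_v3.0), in which all 29910 distinct symbols were found and by which 9303 tested genes, and 68 of the 263 named by rule or as examples, overlap another gene.

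After the filterByExpr step (counts of at least 10, totals of at least 15), 22488 genes were left and scaled by TMM. A model with 12 group means over 36 libraries was fitted with edgeR's quasi-likelihood functions (edgeR 4.0.16, limma 3.58.1, R 4.3.3). The contrasts were Grain minus Hay at T20, the same less its mean over T0 to T16, and the same less T16. P-values are two-sided and adjusted by Benjamini-Hochberg over all genes, with a threshold of 0.05. Differences from the other single harvests, and each other harvest against its other 5, were added after seeing the data.

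The 40 lists held 976 distinct genes, of which 46 had no entry in the table, and 919 were tested. The members and lists were chosen with earlier results of these data known. Lists are described by counts and medians, with no set test. Genes were named by rule. The 12 largest changes each way at T20 needed at least 5 CPM, no overlap with another gene and media that did not overlap. Up to 12 departures each way and up to 8 reversals needed at least 5 CPM, no overlap and a T20 difference outside the earlier range. The 4 greatest gains and losses of CPM, and from each list up to 4 members with the smallest p at T20 and up to 2 that departed, had no such filter. Other members were added as examples, and some genes that the rules name are not reported here. The steps were tested on simulated counts. Alternatives were DESeq2 1.42.0, its size factors, no filter on low counts, a block for the replicate number, a minimum of 1.5-fold, the T20 libraries alone, other earlier means and each library left out. Totals of 55.1 to 64.4 M reads at T20 limit precision for genes of few CPM.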

Additional observations from a re-analysis of the deposited data

Results flagged for a closer look

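The Grain minus Hay difference at T20 departed from the same difference at other harvests in a direct test (edgeR's quasi-likelihood test, Benjamini-Hochberg adjusted p of 0.05), which marks these results for a closer look. Departures numbered 77 genes from the mean of T0 to T16, 733 from T16, 929 from T0, 915 from T4, 2520 from T8 and 3116 from T12.

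Relative to the mean of T0 to T16, and in log2 units of T20 minus that mean, the difference was higher at T20 for CCDC89 (0.53), SGO2 (0.26), PPWD1 (0.25), NFS1 (0.22), KIFAP3 (0.21), CHM (0.20), ANKRD1 (0.20), BET1 (0.19), ARPP19 (0.19), PRDX3 (0.19), INIP (0.18), CALCOCO2 (0.17), TXNIP (0.18), IGFBP5 (0.28) and MSTN (0.51). It was lower at T20 for SPATS2L (-0.36), RASL11A (-0.36), C14H19orf12 (-0.32), GIT1 (-0.29), DRAM1 (-0.28), ZBED4 (-0.27), ELK3 (-0.22), SRXN1 (-0.21), RALY (-0.20), PLIN2 (-0.20), SREBF2 (-0.20), NFIL3 (-0.20), FOS (-0.36), HMOX1 (-0.42), SQSTM1 (-0.20), TPM2 (-0.51), TAGLN (-0.45), ACTA2 (-0.21), ACTG2 (-0.42), FLNA (-0.20), TUBB (-0.24), EREG (-0.26) and ODC1 (-0.18). Of these 38 genes, 6 kept their call when any T20 library was left out (TPM2, TAGLN, ACTG2, SRXN1, ANKRD1 and ODC1). TPM2, TAGLN, ACTG2, ACTA2, HMOX1, FOS, NFIL3, TXNIP, FLNA, TUBB, IGFBP5 and MSTN had a T20 difference inside the range of the earlier harvests.

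Relative to T16, and among genes picked as examples, the difference was higher at T20 for FASN (0.41) and KLF2 (0.52). It was lower for NR4A1 (-0.56), NR4A3 (-0.67), SLC2A3 (-0.48), HK2 (-0.30), PTGS2 (-0.57), CDKN1A (-0.44), CENPF (-0.42) and VEGFA (-0.34). PTGS2 and CDKN1A were lower in Grain at T20, and the other genes of this comparison were higher. The FASN call was lost without 10 of the 12 libraries of the 2 harvests in turn and the KLF2 call without 1 (Hay T16 replicate 3), whereas the other 8 kept theirs in all 12 fits.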

How the results depend on the processing

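No called value of a named gene that was recomputed changed sign under any alternative, and UGT1A9, described below, was not recomputed. The balance of higher and lower genes did turn. At T20 it was 6279 higher and 6929 lower with DESeq2 size factors and 6297 and 7073 with DESeq2. Without the low-count filter it was 6392 and 6461. Against T16 it was 287 and 423 with size factors, 433 and 614 with DESeq2, and 242 and 354 without the low-count filter. It also turned without Grain T20 replicate 1 (242 and 245) or 3 (244 and 379) or Hay T20 replicate 3 (248 and 256). The same held without Grain T16 replicate 2 (240 and 272) or Hay T16 replicate 1 (315 and 350) or 2 (332 and 379). At T20, 13238 genes passed, and 12411 to 12582 did with a library left out. A minimum of 1.5-fold left 4142 (1771 higher, 2371 lower) and 266 in place of 748 of the list members, and also left 0 departures from the earlier mean (0 higher, 0 lower), 0 from T16 (0 higher, 0 lower), 1 from T0, 0 from T4, 13 from T8 and 32 from T12, since it asks for larger changes. The 77 departures from the earlier mean numbered 18 to 61 with a T20 library left out (7 to 28 higher, 11 to 33 lower). They numbered 29 without T0 (16 higher, 13 lower), 293 without T4 (177 and 116), 342 without T8 (186 and 156), 278 without T12 (132 and 146), 198 without T16 (107 and 91) and 283 with DESeq2 (168 and 115), and the cause was not tested. Departures from T16 numbered 487 to 713 with a library left out (240 to 367 higher, 245 to 379 lower), 242 higher without the low-count filter and 614 lower with DESeq2. Departures from T0 numbered 576 to 813 with a T20 library left out.

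The replicate numbers showed no steady pairing of the libraries, although this check cannot exclude one. Deviations of libraries with 1 number correlated at -0.163 to 0.239 at T20 and -0.275 to 0.249 over 18 pairs, with 4 above 0.1. With the replicate block, 13210 genes passed at T20, 79 departed from the earlier mean (74 of the 77) and 702 from T16. With the T20 libraries alone, 13084 genes passed, and 12667 did so with the replicate block as well. For single named genes, 2901 of the recomputed T20 values kept their side of the threshold, 116 lost the call and 11 gained it. For departures from the earlier mean 386 kept it and 221 lost it, and for those from T16 881 kept it and 173 lost it. With 3 libraries a group, small departures are at the edge of what can be called.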

Other observations

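UGT1A9, a conjugating enzyme chosen after its values were seen, had the largest absolute departure of the 77 genes, and it overlaps 13 other annotated genes. It had 0.896, 1.10 and 1.47 CPM in Grain, against 4.96, 5.26 and 0 CPM in Hay at T20, so that the media overlapped, and its log2 fold change of -1.55 stood against 6.67 in the mean of T0 to T16 (difference -8.22, SE 1.56, adjusted p = 0.0124). Relative to that mean UGT1A9 stood 0.17 higher in Grain and 8.39 higher in Hay on the log2 scale, and the split of reads among the overlapping genes was not tested. Its departure was not recomputed with libraries left out.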
